A study of Mus musculus with 18 samples.

Results

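The genes described here encode 10 proteins of the secondary (specific) and tertiary (gelatinase) granules of neutrophils, namely Ltf, Camp, Lcn2, Ngp, Chil3, Olfm4, Mmp8, Mmp9, Mmp25 and Lyz2. They were taken by name from the 40481 gene IDs of a count table of mouse lung neutrophils, and all 10 were among the 16575 genes with enough reads to be tested. Neutrophils make their granules in sequence while they mature in the bone marrow. Myeloblasts and promyelocytes make the primary granules, myelocytes and metamyelocytes then switch on the secondary granule genes under the transcription factor C/EBP epsilon, and the tertiary granules follow. The proteins are stored and released later, so the transcripts of secondary granule genes are known to fall as the cell matures while the proteins persist.

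The study set neutrophils of wild-type (WT) C57BL/6 mice beside those of C57BL/6 mice with a disrupted Cybb gene. Cybb codes for gp91phox, the electron-carrying core of the NADPH oxidase of phagocytes, and its loss is the cause of X-linked chronic granulomatous disease (CGD). Live CD45+ CD11b+ Ly6G+ cells were sorted from enzyme-digested whole lung and separated by CD101, a surface protein of mature neutrophils, and the labels call CD101neg cells immature and CD101pos cells mature. Zymosan, a yeast cell wall particle, had been given intranasally (20 µg), and the lungs were taken 24 hours later. The 6 groups of 3 libraries were naive CD101pos cells of untreated 12-week-old males (WT and CGD), and CD101pos and CD101neg cells of zymosan-treated 13-week-old females (WT and CGD). Treatment, sex and age therefore cannot be told apart in any comparison of zymosan with naive cells, naive CD101neg cells are not analysed here, and cells of a digested lung can include those of its blood vessels. Separate animals are not stated for the replicates, so a p-value here reflects the spread among these libraries, which may be technical.

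Libraries held 33.7 to 67.9 M counts in genes. Levels are given as CPM, a gene's share of the reads of a library, with TMM scaling, a correction for differences in library composition. The targeted gene Cybb lay between 29.6 and 59.5 CPM in the 9 CGD libraries and between 126 and 283 CPM in the 9 WT libraries, so the libraries matched their genotype labels. Cd101 transcript was lower in CD101neg than in CD101pos libraries of the same genotype after zymosan, at 156 to 185 against 322 to 451 CPM in WT and at 47.3 to 82.0 against 95.9 to 112 CPM in CGD. CGD CD101pos libraries were thus below WT CD101neg libraries in Cd101 transcript, although the sort was by the protein. Of the neutrophil markers, S100a8, S100a9, Csf3r, Cxcr2, Retnlg, Trem1 and Clec4d were at 470.5 CPM or above in all 18 libraries, while Ly6g, whose protein was sorted for, ranged from 6.78 to 229.8 CPM. Of the primary granule genes of promyelocytes, Elane and Mpo never exceeded 0.294 CPM, while Prtn3 ranged from 1.04 to 9.40 CPM and Prss57 from 1.86 to 15.85 CPM.

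The 10 genes made up 0.685% to 2.39% of the counts of a library. Their group means were 0.898% ± 0.0894 (SD, n = 3) in WT naive and 1.08% ± 0.328 in CGD naive cells, 0.98% ± 0.0983 in WT and 1.24% ± 0.101 in CGD zymosan CD101pos cells, and 1.125% ± 0.586 in WT and 1.69% ± 0.627 in CGD zymosan CD101neg cells. On the scale of CPM per kilobase of exon, Lyz2 had the highest or, in CGD CD101neg cells, the third highest group mean (1929 to 2773 CPM per kb). Lcn2 followed with 244 to 3247, Mmp9 with 520.0 to 837, Mmp8 with 328 to 1280 and Ngp with 59.8 to 3135 CPM per kb. Olfm4 was low throughout at 1.89 to 25.7 CPM per kb, and Camp ranged from 2.085 to 102 CPM per kb. The genes differed in how far they varied. From the lowest to the highest library, Camp spanned 640.5-fold, Ngp 196-fold, Ltf 127-fold and Chil3 81.2-fold in CPM, whereas Mmp9 spanned 2.04-fold and Lyz2 1.97-fold.

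**Figure D1:**
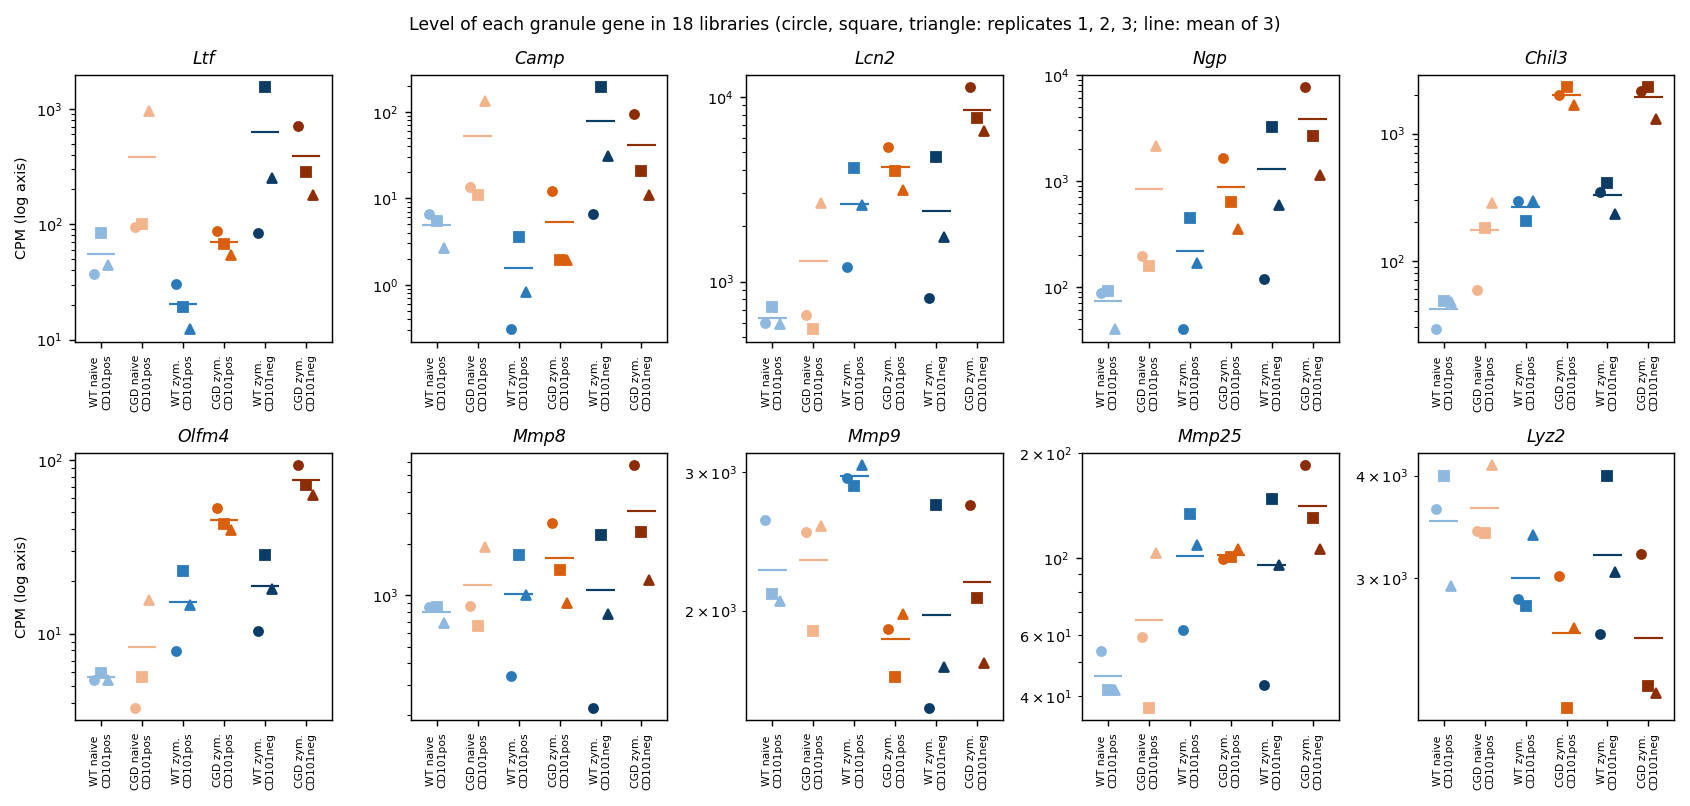
Level of each of the 10 granule genes in 18 libraries, as CPM on a log axis. Each symbol is a library (circle, square and triangle for replicates 1, 2 and 3) and each line the mean of 3 in a group (zym., zymosan). Chil3 and Olfm4 stand higher in both CGD zymosan groups than in any WT library. Over all libraries Mmp9 spans only 2.04-fold, with the WT zymosan CD101pos libraries highest, and Lyz2 only 1.97-fold.

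The effect of the genotype after zymosan was the first comparison. In CD101neg cells 2 of 10 genes passed an adjusted p of 0.05, Chil3 and Olfm4, both higher in CGD, and 12.9% of all tested genes passed (6.67% higher and 6.24% lower). All 3 CGD libraries lay above all 3 WT libraries for 3 genes, Lcn2, Chil3 and Olfm4, against 14.7% of all tested genes, and below them for none of the 10, against 15.3%. The median log2 fold change of the 10 was 1.04, that of all tested genes -0.08. In CD101pos cells the same 2 genes passed, again higher in CGD, against 5.3% of all tested genes (2.77% higher and 2.53% lower). There the libraries of Ltf, Chil3 and Olfm4 were all higher in CGD (12.0% of all tested genes) and those of Mmp9 all lower (9.88%), with a median of 1.14 for the 10 and 0.02 for all genes.

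In naive CD101pos cells none of the 10 passed by edgeR, where 0.127% of all tested genes passed (0.121% higher and 0.00603% lower). DESeq2 called 1 of the 10, Chil3, and 110 of all genes. An unadjusted p under 0.05 by edgeR was found for 4 of the 10. The share of all genes at that cutoff was not taken, here or below. Ltf, Camp, Ngp and Chil3 were higher in all 3 CGD libraries than in all 3 WT libraries, against 7.46% of all tested genes, and none of the 10 was lower in all 3, against 7.2%. The median was 0.79 for the 10 and 0.00 for all genes.

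The comparison of CD101neg with CD101pos cells asked how the labelled maturity classes differ after zymosan. None of the 10 passed in either genotype when the libraries were treated as unpaired. In WT, 3 had an unadjusted p under 0.05, and 0.44% of all tested genes passed by edgeR (0.41% higher and 0.0302% lower). DESeq2 called 2 of the 10, Ltf and Camp, and 305 of all genes, against 73 by edgeR. In CGD, 1 had an unadjusted p under 0.05, and 7.35% of all tested genes passed by edgeR (3.27% higher and 4.08% lower). DESeq2 called 0 of the 10 and 2066 of all genes. The 2 sorts of a genotype carry the same replicate numbers in their titles and deviated together by number. A fit of the zymosan libraries alone was therefore also made, with the number within a genotype as a block. Whether same-numbered sorts share an animal is not established, and the values with the block depend on it. With the block Camp, Ngp and Mmp9 passed in WT and Camp, Ngp, Lcn2, Olfm4 and Mmp8 in CGD, while the count over all tested genes rose from 73 to 1725 in WT and from 1218 to 3882 in CGD. Without the block, the libraries of Ltf and Camp were all higher in WT CD101neg cells (6.73% of all tested genes) and those of Mmp9 all lower (5.22%). Those of Ltf, Lcn2, Olfm4 and Mmp25 were all higher in CGD CD101neg cells (14.5%), and none of the 10 was all lower there (14.4%).

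Zymosan against naive CD101pos cells gave 1 gene past the threshold in WT, Chil3 (3.79% of all tested genes, 2.92% higher and 0.875% lower), and 2 in CGD, Chil3 and Olfm4 (12.8%, 7.13% higher and 5.71% lower). In WT, 5 genes were higher in all zymosan libraries (Lcn2, Chil3, Olfm4, Mmp9 and Mmp25, against 11.7% of all genes) and 1 was lower in all of them (Ltf, against 12.0%). In CGD, 3 were all higher (Lcn2, Chil3 and Olfm4, against 16.1%) and 2 all lower (Ltf and Lyz2, against 15.8%). The medians of the 10 were 0.77 in WT and 0.30 in CGD, beside -0.03 and 0.00 over all genes. Whether the genotype difference itself changed with the sort or with zymosan was tested by interactions. None of the 10 passed for genotype by sort by edgeR (1 with an unadjusted p under 0.05) or by DESeq2. Of all tested genes 0.851% passed by edgeR (0.181% higher and 0.67% lower), and DESeq2 called 589 genes. With the replicate block 4 of the 10 passed, Camp, Lcn2, Mmp8 and Mmp9, while the count over all genes went from 141 to 2204. None passed for genotype by zymosan by edgeR (1 with an unadjusted p under 0.05) or by DESeq2. There 0.32% of all tested genes passed by edgeR (0.163% higher and 0.157% lower), and DESeq2 called 261 genes. The 7 comparisons share groups of libraries with one another, so their values are set side by side below and not read as separate evidence.

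**Figure D2:**
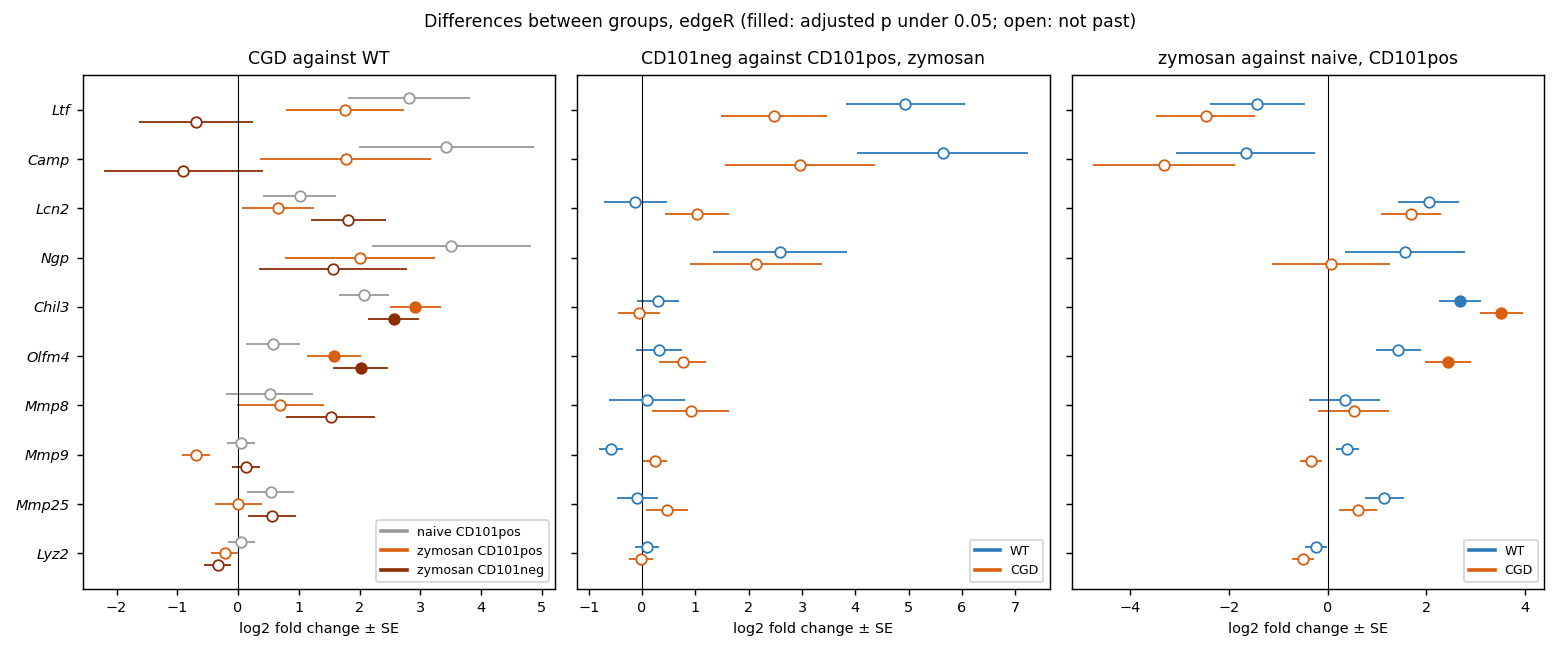
Log2 fold change ± SE of each granule gene from edgeR in the 3 genotype comparisons (left), CD101neg against CD101pos after zymosan (middle) and zymosan against naive CD101pos cells (right). Filled symbols have an adjusted p under 0.05 over 16575 genes, and these are Chil3 and Olfm4; the widest bars belong to Camp, Ngp and Ltf.

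Ltf, Camp and Ngp are the genes of this group most restricted to developing neutrophils. Ltf encodes lactoferrin, which withholds iron from microbes, Camp encodes the cathelicidin whose cleaved peptide CRAMP permeates microbial membranes, and Ngp encodes neutrophilic granule protein, a relative of the cathelicidins and cystatins. In the reference annotation (GRCm38, GENCODE M21) all 3 lie on chromosome 9, on 1.195 Mb, with Camp (ENSMUSG00000038357) at chr9:109847379-109849617 on the minus strand, Ngp (ENSMUSG00000032484) at chr9:110419747-110423012 and Ltf (ENSMUSG00000032496) at chr9:111019271-111042767 on the plus strand. Because these 3 varied most between libraries, the promoter windows are shown, from 250 bases before to 50 after the start of the gene in RefSeq on GRCm38.p6. Capitals mark matches to TTNNGNAA on either strand, a loose form of the paired half-sites bound by C/EBP factors. The windows are chr9:111019042-111019341 (plus strand), chr9:109849407-109849706 (minus strand) and chr9:110419558-110419857 (plus strand), each written 5′ to 3′ along its gene.
Ltf: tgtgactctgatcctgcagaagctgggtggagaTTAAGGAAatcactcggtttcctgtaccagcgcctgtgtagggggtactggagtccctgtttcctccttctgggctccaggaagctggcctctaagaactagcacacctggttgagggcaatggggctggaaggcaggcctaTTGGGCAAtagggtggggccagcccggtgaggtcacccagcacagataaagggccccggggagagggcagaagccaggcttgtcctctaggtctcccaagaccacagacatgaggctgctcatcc
Camp: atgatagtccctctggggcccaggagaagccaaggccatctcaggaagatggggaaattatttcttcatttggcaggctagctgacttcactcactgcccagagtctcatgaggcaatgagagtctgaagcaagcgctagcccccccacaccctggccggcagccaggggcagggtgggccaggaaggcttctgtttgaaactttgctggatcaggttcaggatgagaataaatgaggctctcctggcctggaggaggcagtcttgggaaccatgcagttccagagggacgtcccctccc
Ngp: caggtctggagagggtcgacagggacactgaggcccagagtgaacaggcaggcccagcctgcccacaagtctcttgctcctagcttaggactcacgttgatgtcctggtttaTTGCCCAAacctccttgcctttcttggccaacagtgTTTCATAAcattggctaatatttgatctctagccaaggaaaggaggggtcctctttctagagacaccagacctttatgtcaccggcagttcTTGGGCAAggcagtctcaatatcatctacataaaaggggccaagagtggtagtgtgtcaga
The Ltf window held 2 matches, the Ngp window 3 and the Camp window 0. Most of the Camp window lies within the Camp gene as placed above, because its starts in RefSeq and GENCODE differ. The windows of Lcn2 (chr2:32387690-32387989) and Olfm4 (chr14:80000052-80000351) lie wholly inside their genes in GENCODE (chr2:32384633-32388252 and chr14:79984081-80023139). Matches in the windows of Camp, Lcn2 and Olfm4 are therefore less comparable with the others. Lcn2 and Olfm4 are each counted for both motifs below. Of the 9 granule genes with a window in the table (that of Mmp9 was not used here), 7 held a match, against 40.7% of 32851 promoter windows of the same length. The letters GAGGAAG, a core bound by the myeloid factor PU.1, were present on either strand in 4 of the 9 windows (Lcn2, Olfm4, Mmp8 and Mmp25) and in 13.6% of all windows. The 2 motifs did not share bases in these windows, and a match is a description of letters, not of binding.

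Ltf measured 37.0, 83.5 and 44.55 CPM in WT naive libraries 1, 2 and 3 and 93.9, 101 and 963 CPM in the CGD naive libraries. After zymosan it was 30.3, 19.1 and 12.2 CPM in WT CD101pos and 87.5, 67.4 and 54.3 CPM in CGD CD101pos cells, and 83.1, 1556 and 249.9 CPM in WT CD101neg and 706, 285 and 178 CPM in CGD CD101neg cells. Ltf was thus lowest in WT zymosan CD101pos cells, where every library lay below all others of the study, and every CD101neg library exceeded every CD101pos library of its own genotype after zymosan. The CD101neg to CD101pos log2 fold change was 4.94 ± 1.11 (SE) in WT (edgeR, adjusted p = 0.0635) and 2.48 ± 0.99 in CGD (adjusted p = 0.146), and neither passed. With the block the values were 4.095 ± 1.2 (adjusted p = 0.143) and 2.24 ± 0.99 (adjusted p = 0.206). Scaling by library size only gave 4.87 in WT with an adjusted p of 0.0367, and DESeq2 gave 4.93 with 0.00025. In a bulk library, fewer cells that express a gene and less RNA per cell cannot be told apart.

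Ratios between same-numbered sorts were also taken. The ratio of the CD101neg to the CD101pos level of Ltf was 2.75, 81.3 and 20.4 in WT pairs 1, 2 and 3 and 8.06, 4.23 and 3.27 in CGD pairs. For Camp it was 21.7, 54.0 and 37.0 in WT and 7.60, 10.7 and 5.62 in CGD. For Ngp it was 2.95, 7.20 and 3.54 in WT and 4.74, 4.17 and 3.27 in CGD. All 6 pairs were higher in CD101neg cells for each of the 3 genes. The share of all tested genes that were higher in all 6 pairs was not taken, here or below. The WT ratios of Camp were all above the CGD ratios, whereas those of Ngp overlapped between the genotypes.

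Camp measured 6.51, 5.51 and 2.63 CPM in WT naive and 13.4, 10.9 and 134 CPM in CGD naive libraries. In zymosan-treated mice the level was 0.304, 3.605 and 0.831 CPM in WT CD101pos cells, which rest on 20, 176 and 46 counts, and 12.25, 1.92 and 1.91 CPM in CGD CD101pos cells. In CD101neg cells it was 6.59, 195 and 30.7 CPM in WT and 93.1, 20.6 and 10.75 CPM in CGD. The lowest library of WT CD101neg cells exceeded the highest of WT CD101pos cells, while in CGD the 2 sorts overlapped unless compared by number. The log2 fold change of CD101neg over CD101pos was 5.635 ± 1.61 in WT (edgeR, adjusted p = 0.183) and 2.96 ± 1.41 in CGD (adjusted p = 0.229) in the unpaired fit. With the replicate block it was 5.28 ± 0.23 (adjusted p = 2.412e-10) and 2.92 ± 0.20 (adjusted p = 4.495e-08). The difference between those changes, CGD minus WT, was -2.67 ± 1.92 unpaired (adjusted p = 0.556) and -2.36 ± 0.29 with the block (adjusted p = 5.313e-05).

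Ngp measured 87.6, 92.1 and 39.5 CPM in WT naive and 195.5, 158 and 2145 CPM in CGD naive libraries. Among zymosan groups it read 39.7, 443 and 167 CPM in WT CD101pos, 1631, 629.5 and 348 CPM in CGD CD101pos, 117, 3192 and 592 CPM in WT CD101neg and 7731, 2623 and 1139 CPM in CGD CD101neg cells. The ranges of both sorts and of both genotypes overlapped after zymosan, because each group spread over 4.69-fold or more. CD101neg over CD101pos gave a log2 fold change of 2.58 ± 1.26 in WT (edgeR, adjusted p = 0.511) and 2.14 ± 1.24 in CGD (adjusted p = 0.328) unpaired. With the replicate block the values were 2.07 ± 0.19 (adjusted p = 1.411e-06) and 1.98 ± 0.18 (adjusted p = 9.231e-07), and their difference was -0.09 ± 0.25 (adjusted p = 0.866).

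**Figure D3:**
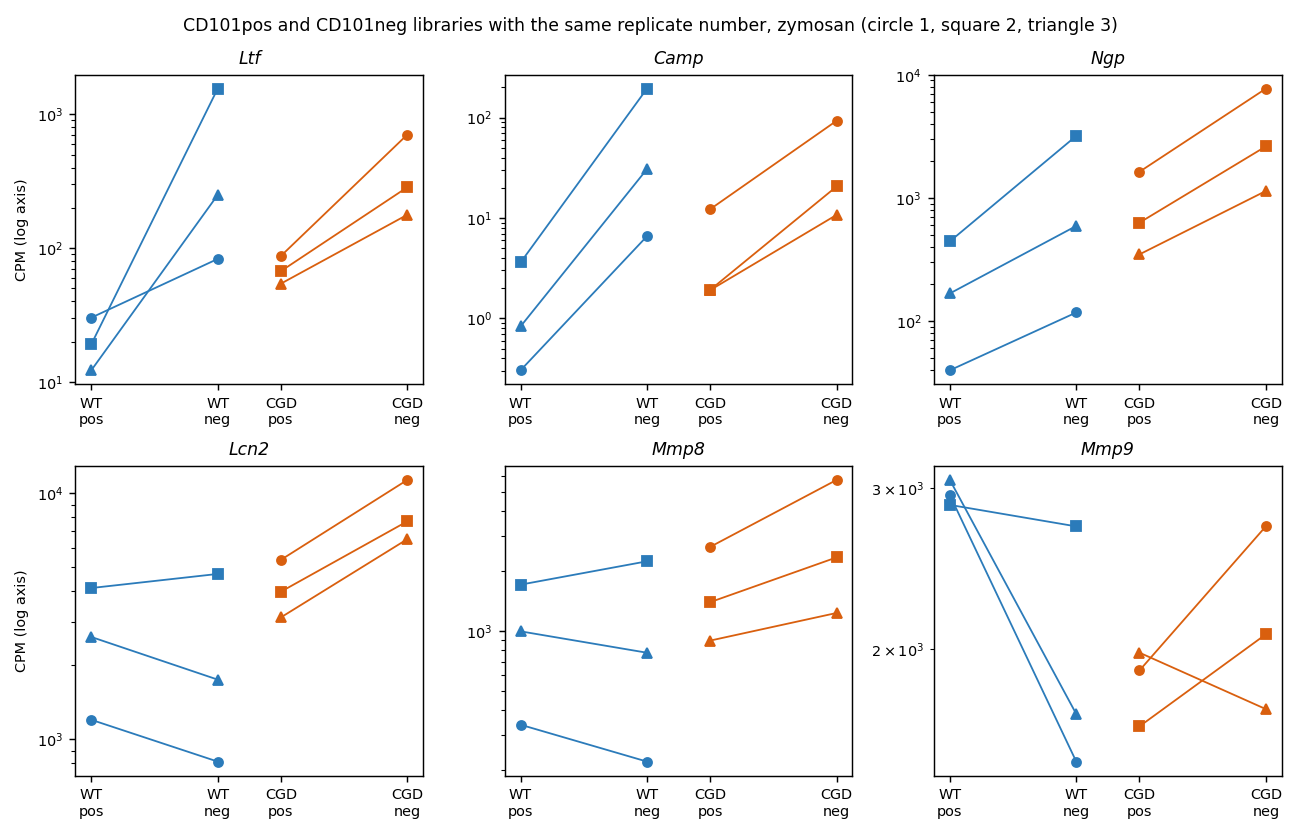
CPM (log axis) of 6 granule genes in the CD101pos and CD101neg cells of zymosan-treated WT (blue) and CGD (orange) mice, with lines that join libraries of the same replicate number. Ltf, Camp and Ngp are higher in CD101neg than in CD101pos cells in all 6 pairs; Lcn2 and Mmp8 are higher in 3 of 3 CGD pairs and 1 of 3 WT pairs.

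Genotype differences of these 3 genes rested on few libraries. In CD101neg cells the log2 fold change of CGD over WT was -0.69 ± 0.945 for Ltf (edgeR, adjusted p = 0.682), -0.90 ± 1.31 for Camp (adjusted p = 0.704) and 1.56 ± 1.22 for Ngp (adjusted p = 0.435). WT CD101neg library 2 had the highest level of all 10 genes in its group, with Ltf 9.34-fold, Camp 10.4-fold and Ngp 9.0-fold above the mean of the other 2 libraries. Without it the values were 1.23 for Ltf, 1.15 for Camp and 3.43 for Ngp, so the direction of Ltf and Camp turned. The CD101pos values were 1.76 ± 0.97 for Ltf (adjusted p = 0.371), 1.77 ± 1.41 for Camp (adjusted p = 0.568) and 2.0 ± 1.235 for Ngp (adjusted p = 0.438).

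In naive cells CGD over WT gave 2.81 ± 1.01 for Ltf (edgeR, adjusted p = 0.544), 3.43 ± 1.44 for Camp (adjusted p = 0.661) and 3.51 ± 1.31 for Ngp (adjusted p = 0.597). CGD naive library 3 was the highest of its group for 10 of 10 genes, with Ltf 9.87-fold, Camp 11.04-fold and Ngp 12.15-fold above the mean of the other 2. The other 2 CGD naive libraries still lay above all WT naive libraries for each of the 3 genes, and without library 3 the values were 0.83, 1.31 and 1.28. S100a8 was 2.78-fold, Ly6c2 2.79-fold and Cebpe 0.492-fold the mean of the other 2 libraries in that library. Zymosan over naive CD101pos cells gave -1.42 ± 0.96 in WT (edgeR, adjusted p = 0.5025) and -2.47 ± 0.99 in CGD (adjusted p = 0.121) for Ltf, -1.66 ± 1.4 and -3.31 ± 1.43 for Camp (adjusted p = 0.614 and 0.154), and 1.57 ± 1.22 and 0.06 ± 1.19 for Ngp (adjusted p = 0.571 and 0.982). Without CGD naive library 3 the CGD values were -0.50, -1.22 and 2.27. These libraries were picked out after their values were seen, and what sets them apart was not tested.

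Camp and Ngp varied together between libraries, while the ratio of their counts differed between some of the groups. After subtraction of group means their log2 CPM correlated at r = 0.98 over 18 libraries, against 0.746 without that subtraction, as a description of libraries that share a group and a depth. Camp counts were 5.98% to 7.44% of Ngp counts in WT naive libraries, 6.26% to 6.93% in CGD naive and 5.19% to 6.10% in WT zymosan CD101neg libraries. They were 0.787% to 1.205% in CGD CD101neg, 0.497% to 0.813% in WT CD101pos and 0.305% to 0.751% in CGD CD101pos libraries after zymosan. The ratio needs no scaling between libraries, and only its change between groups is read since the genes differ in length. It formed 2 ranges that did not overlap, with the naive and WT CD101neg libraries in the upper and the other 3 groups in the lower range. Among CD101neg cells the CGD ratio was lower than the WT ratio by a factor of 5.84 (log2 difference -2.545 ± 0.19, SE, n = 3), although the levels of both genes overlapped between the genotypes. In WT, CD101neg exceeded CD101pos cells 8.32-fold in the ratio, and in CGD 1.92-fold. In CD101pos cells naive exceeded zymosan libraries 9.86-fold in WT and 13.3-fold in CGD. An exact two-sided permutation test of these 5 differences gave p = 0.1 each, the smallest that 3 against 3 libraries allow, and 0.3 after adjustment over 21 tests of 3 ratios. The 3 ratios were taken from 7 computed for pairs of the 10 genes, after their values had been seen.

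**Figure D4:**
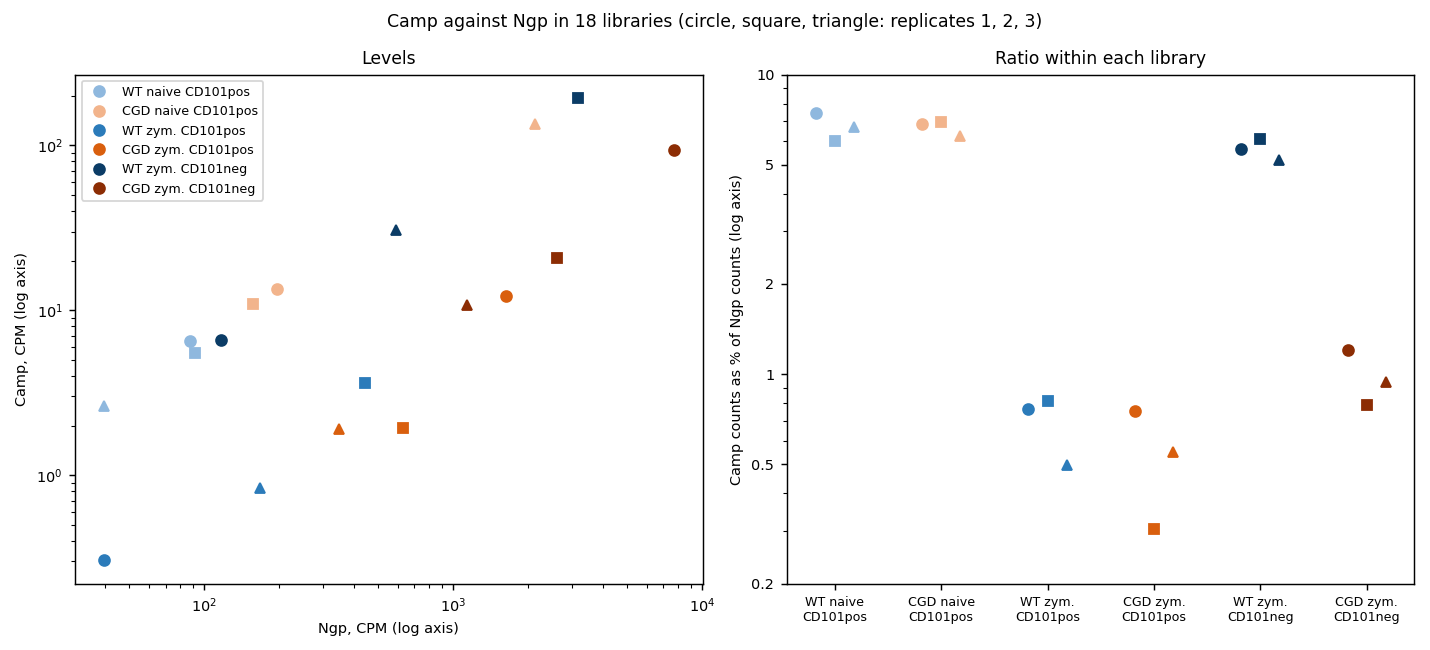
Left, Camp against Ngp in CPM (log axes) in 18 libraries, coloured by group; right, Camp counts as a percentage of Ngp counts in each library (log axis). Naive libraries and WT zymosan CD101neg libraries lie at 5.19% or above, all others at 1.205% or below.

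The ratio of Ngp to Ltf counts was 88.7% to 236% in WT naive and 156% to 223% in CGD naive libraries. It was 141% to 237% in WT CD101neg and 640.4% to 1095% in CGD CD101neg libraries, a log2 difference of 2.19 ± 0.32 (exact permutation p = 0.1, adjusted 0.3). Between CD101pos groups of the genotypes after zymosan it overlapped, at 131%, 2317% and 1368% in WT and 1864%, 934% and 640.0% in CGD libraries 1, 2 and 3. Zymosan over naive CD101pos cells gave a log2 difference of 2.42 ± 0.48 in CGD, with all libraries higher (exact permutation p = 0.1, adjusted 0.3). In WT those groups overlapped. Apart from WT CD101pos library 1, at 131%, these values split the groups as the ratio of Camp to Ngp did, in reverse order. The ratio of Camp to Ltf counts overlapped between the groups in all 7 pairwise comparisons.

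Lcn2 encodes lipocalin 2, which binds bacterial siderophores, and Olfm4 encodes olfactomedin 4, a secreted glycoprotein found in a subset of neutrophils. Lcn2 measured 600.1, 725 and 591.5 CPM in WT naive and 658.5, 550.5 and 2660 CPM in CGD naive libraries. After zymosan it was 1200, 4121 and 2606 CPM in WT CD101pos and 5367, 3983 and 3131 CPM in CGD CD101pos cells, and 811, 4702 and 1748 CPM in WT CD101neg and 11340, 7696 and 6513 CPM in CGD CD101neg cells. All 3 CGD CD101neg libraries were above every other library of the study. Their log2 fold change over WT was 1.815 ± 0.61 (edgeR, adjusted p = 0.0596) and did not pass. Without WT CD101neg library 2 it was 2.73 (adjusted p = 0.0132), and DESeq2 gave 1.84 (adjusted p = 0.0451) for all libraries.

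In CGD, Lcn2 was higher in CD101neg than in CD101pos cells in 3 of 3 pairs, by 2.11-, 1.93- and 2.08-fold, and in WT in 1 of 3, with ratios of 0.676, 1.14 and 0.671. The log2 fold changes were 1.03 ± 0.60 in CGD (edgeR, adjusted p = 0.323) and -0.13 ± 0.59 in WT (adjusted p = 0.976) unpaired. With the replicate block they were 1.00 ± 0.14 (adjusted p = 7.919e-05) and -0.33 ± 0.14 (adjusted p = 0.182). The difference between the genotypes was 1.16 ± 0.84 unpaired (adjusted p = 0.556) and 1.33 ± 0.20 with the block (adjusted p = 0.000461). Zymosan over naive CD101pos cells gave 2.05 ± 0.62 in WT (adjusted p = 0.0774) and 1.69 ± 0.61 in CGD (adjusted p = 0.0791), and the latter was 2.76 (adjusted p = 0.00651) without CGD naive library 3. Epithelium also makes Lcn2. The summed level of 13 airway and alveolar epithelial markers was 2042 to 2344 CPM in WT naive, 797 to 1864 in CGD naive, 463 to 1687 in WT and 1203 to 1436 in CGD zymosan CD101pos, and 583 to 1256 in WT and 375.5 to 704 in CGD zymosan CD101neg libraries. Scgb1a1 alone had a mean of 1125 CPM in WT naive cells. None of the 13 markers was higher in CGD than in WT CD101neg cells by the test (6.67% of all tested genes) and 1 was lower (6.24%). Bpifa1 was at 0 in at least 1 library of each CGD zymosan group. The part of epithelial RNA in the level of Lcn2 was not tested.

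Olfm4 measured 5.43, 5.93 and 5.43 CPM in WT naive and 3.74, 5.635 and 15.6 CPM in CGD naive libraries. In zymosan-treated mice the level was 7.99, 22.8 and 14.6 CPM in WT CD101pos and 53.15, 42.8 and 39.3 CPM in CGD CD101pos cells, and 10.4, 28.25 and 18 CPM in WT CD101neg and 93.4, 72.0 and 63.2 CPM in CGD CD101neg cells. All CGD zymosan libraries were above all WT libraries, and in CGD the CD101neg libraries were above the CD101pos libraries. In CD101neg cells CGD exceeded WT by a log2 fold change of 2.015 ± 0.45 (edgeR, adjusted p = 0.00736). In CD101pos cells it was 1.58 ± 0.45 (adjusted p = 0.0480), a call that was lost with RLE size factors (1.55, adjusted p = 0.0548), with no low-count filter (1.56, adjusted p = 0.182) and without any of 5 of the 6 libraries (1.27 to 1.67, adjusted p = 0.0773 to 0.158). Zymosan over naive cells gave 2.44 ± 0.46 in CGD (adjusted p = 0.00185) and 1.43 ± 0.45 in WT (adjusted p = 0.0905), and the difference of 1.005 ± 0.62 between the genotypes did not pass (adjusted p = 0.604). CD101neg exceeded CD101pos cells in 6 of 6 pairs, by 1.24- to 1.30-fold in WT and 1.61- to 1.76-fold in CGD; with the block the log2 change was 0.72 ± 0.13 in CGD (adjusted p = 0.000431) and 0.32 ± 0.13 in WT (adjusted p = 0.134).

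Chil3 encodes the chitinase-like lectin Ym1, which binds chitin and related sugars without cleaving them and is also made by alveolar macrophages. It lies at chr3:106147554-106167564 on the minus strand (GRCm38, ENSMUSG00000040809), and its promoter window is shown because it changed the most of the genes that passed. The window is chr3:106167515-106167814 on the minus strand, in RefSeq on GRCm38.p6, with the same capitals for TTNNGNAA.
Chil3: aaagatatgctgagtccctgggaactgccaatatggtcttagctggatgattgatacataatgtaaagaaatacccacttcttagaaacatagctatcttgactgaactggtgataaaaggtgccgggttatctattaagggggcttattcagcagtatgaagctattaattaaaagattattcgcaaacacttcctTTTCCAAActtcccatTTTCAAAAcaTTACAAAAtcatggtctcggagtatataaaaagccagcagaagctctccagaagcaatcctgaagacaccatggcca
It held 3 matches, all within 53 bases before the start and on the opposite strand.

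Chil3 measured 28.8, 48.6 and 47.0 CPM in WT naive and 58.4, 182 and 286 CPM in CGD naive libraries. Among zymosan groups it read 296, 205 and 295 CPM in WT CD101pos and 2011, 2333 and 1672 CPM in CGD CD101pos cells, and 347, 406 and 231 CPM in WT CD101neg and 2163, 2340 and 1298 CPM in CGD CD101neg cells. Every CGD zymosan library exceeded every WT library, with no overlap in any of the 3 genotype comparisons. CGD over WT gave a log2 fold change of 2.56 ± 0.42 in CD101neg cells (edgeR, adjusted p = 0.000704), 2.92 ± 0.42 in CD101pos cells (adjusted p = 0.000758) and 2.08 ± 0.41 in naive cells (adjusted p = 0.0535). The naive value passed without CGD naive library 1 (2.495, adjusted p = 0.00102) and by DESeq2 (2.09, adjusted p = 0.00016).

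Chil3 rose from naive to zymosan CD101pos cells in both genotypes, by 2.68 ± 0.42 in WT (edgeR, adjusted p = 0.00104) and 3.515 ± 0.44 in CGD (adjusted p = 3.417e-05). The difference between the genotypes was 0.84 ± 0.56 and did not pass (adjusted p = 0.634). Between the sorts it changed little, by 0.30 ± 0.395 in WT (adjusted p = 0.871) and -0.05 ± 0.395 in CGD (adjusted p = 0.956). Chil4 (Ym2), a close paralog, held 0.634% to 1.48% as many counts as Chil3 in every library and had log2 fold changes of 2.57 ± 0.44 and 3.13 ± 0.45 for CGD over WT in CD101neg and CD101pos cells. Reads shared between the 2 genes make the source of those counts uncertain.

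Markers of other cell types moved in the same comparisons. The sum of 14 alveolar macrophage markers, Chil3 not among them, was 171 to 172 CPM in WT naive, 179 to 339 in CGD naive, 219 to 596 in WT and 644 to 960.0 in CGD CD101pos, 238 to 489.5 in WT and 367 to 527 in CGD CD101neg libraries. By the test, 9 of 14 were higher after zymosan in WT and 8 in CGD CD101pos cells (2.92% and 7.13% of all tested genes), and 5 of 14 were higher in CGD than in WT CD101pos cells (2.77%); Marco was at 0 in at least 1 WT naive library. Among naive cells 3 of 14 were higher in CGD than in WT (0.121% of all tested genes) and none lower (0.00603%). In CD101neg cells 7 of 14 were lower in CGD than in WT (6.24%) and none higher, though their sums overlapped. Between the CGD sorts 10 of 14 were lower in CD101neg cells (4.08%). Of 12 monocyte and interstitial macrophage markers, 8 were lower in CGD than in WT CD101neg cells (6.24%). In CD101pos cells 4 were higher (2.77%) and 1 lower (2.53%), with sums of 972 to 1410 CPM over all libraries. Of 7 B cell markers, 6 were lower in CGD than in WT CD101neg cells (6.24%) and 5 in CD101pos cells (2.53%). After zymosan 6 of the 7 were lower in each genotype (0.875% of all tested genes in WT and 5.71% in CGD). Their sums were 429.6 to 454 CPM in WT naive, 299.5 to 437 in CGD naive, 149 to 175 in WT and 42.8 to 63.2 in CGD CD101pos, and 116 to 145 in WT and 26.4 to 43.1 in CGD CD101neg libraries, with Pax5 at 0 in at least 1 library of 3 zymosan groups. The part of other cell types in the differences of Chil3 was not tested.

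Mmp8 is the neutrophil collagenase, Mmp9 is gelatinase B, the marker protein of tertiary granules, and Mmp25 is a membrane-anchored metalloproteinase of leukocytes. Mmp8 measured 853, 847 and 686.5 CPM in WT naive and 859.5, 657.5 and 1904 CPM in CGD naive libraries. After zymosan it was 338, 1708 and 995 CPM in WT CD101pos and 2645, 1395 and 894 CPM in CGD CD101pos cells, and 220.4, 2238 and 777 CPM in WT CD101neg and 5740, 2342 and 1231 CPM in CGD CD101neg cells. The groups overlapped in all 7 pairwise comparisons. In CD101neg cells CGD over WT gave a log2 fold change of 1.525 ± 0.73 (edgeR, adjusted p = 0.184), and 2.64 (adjusted p = 0.0428) without WT CD101neg library 2. CD101neg over CD101pos gave 0.92 ± 0.72 in CGD (adjusted p = 0.484) and 0.09 ± 0.72 in WT (adjusted p = 0.989) unpaired. With the replicate block these were 0.75 ± 0.16 (adjusted p = 0.00262) and -0.20 ± 0.16 (adjusted p = 0.537), and their difference was 0.95 ± 0.23 (adjusted p = 0.0108), against 0.83 ± 1.015 unpaired (adjusted p = 0.742).

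Mmp9 measured 2604, 2098 and 2057 CPM in WT naive and 2519, 1882 and 2565 CPM in CGD naive libraries. In zymosan-treated mice the level was 2948, 2876 and 3063 CPM in WT CD101pos and 1894, 1645 and 1981 CPM in CGD CD101pos cells, and 1505, 2724 and 1697 CPM in WT CD101neg and 2725, 2075 and 1718 CPM in CGD CD101neg cells. The 3 WT zymosan CD101pos libraries were the highest of the study and all above those of CGD CD101pos and WT CD101neg cells. CGD over WT gave a log2 fold change of -0.69 ± 0.23 in CD101pos cells (edgeR, adjusted p = 0.101) and 0.14 ± 0.23 in CD101neg cells (adjusted p = 0.744), neither past the threshold; the first was -0.70 by DESeq2 (adjusted p = 0.0359) and -0.72 with library size only (adjusted p = 0.0335). CD101neg over CD101pos gave -0.58 ± 0.23 in WT (adjusted p = 0.377) and 0.24 ± 0.23 in CGD (adjusted p = 0.582) unpaired, and -0.64 ± 0.16 (adjusted p = 0.016) and 0.19 ± 0.16 (adjusted p = 0.437) with the block. The difference between the genotypes was 0.82 ± 0.33 unpaired (adjusted p = 0.257) and 0.83 ± 0.23 with the block (adjusted p = 0.0228). The same-numbered ratios were 0.511, 0.947 and 0.554 in WT and 1.44, 1.26 and 0.867 in CGD.

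Mmp25 measured 53.95, 41.6 and 41.7 CPM in WT naive and 59.1, 37.0 and 103 CPM in CGD naive libraries. Among zymosan groups it read 61.9, 133.5 and 109 CPM in WT CD101pos and 99.4, 100.4 and 106 CPM in CGD CD101pos cells, and 43.1, 148 and 95.7 CPM in WT CD101neg and 185, 130.5 and 106 CPM in CGD CD101neg cells. It passed in none of the comparisons, and the highest change was 1.15 ± 0.39 on the log2 scale for zymosan over naive WT cells (edgeR, adjusted p = 0.120; DESeq2 1.18, adjusted p = 0.0468), where all zymosan libraries were higher.

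Lyz2 encodes lysozyme, which cleaves bacterial cell walls and is shared by all granule classes and by macrophages. It measured 3643, 3995 and 2939 CPM in WT naive and 3422, 3404 and 4120 CPM in CGD naive libraries. After zymosan it was 2833, 2776 and 3392 CPM in WT CD101pos and 3020, 2090 and 2615 CPM in CGD CD101pos cells, and 2569, 3995 and 3053 CPM in WT CD101neg and 3213, 2221 and 2181 CPM in CGD CD101neg cells. All CGD naive libraries lay above all CGD zymosan CD101pos libraries, a log2 fold change of -0.50 ± 0.22 (edgeR, adjusted p = 0.152), and the other changes were between -0.34 and 0.10. Scaling by library size only made that difference -0.75 (adjusted p = 0.0058) and made CGD over WT in CD101neg cells -0.81 (adjusted p = 0.0039).

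The spread between replicates set these genes apart in size. Among 5333 genes with a mean of at least 10 CPM, the SD of log2 CPM within groups put Camp, Ngp, Ltf and Mmp8 above the 99th percentile (1.75, 1.67, 1.30 and 1.06), Lcn2 at 98.5, Olfm4 at 94.5, Chil3 at 93.1 and Mmp25 at 91.8, and Mmp9 at 47.4 and Lyz2 at 40.0. The median SD of those genes was 0.277. The same libraries were high for many of the genes. CGD naive library 3 was the highest of its group for 10 of 10, WT CD101neg library 2 for 10 of 10 and CGD CD101neg library 1 for 9 of 10. Lcn2, Ngp and Olfm4 had the same highest library in 6 of 6 groups, as did Camp and Mmp8. Chil3 followed least, with within-group correlations of 0.07 to 0.56 with the other 9 genes, and the highest of all 45 was that of Camp and Ngp.

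**Figure D5:**
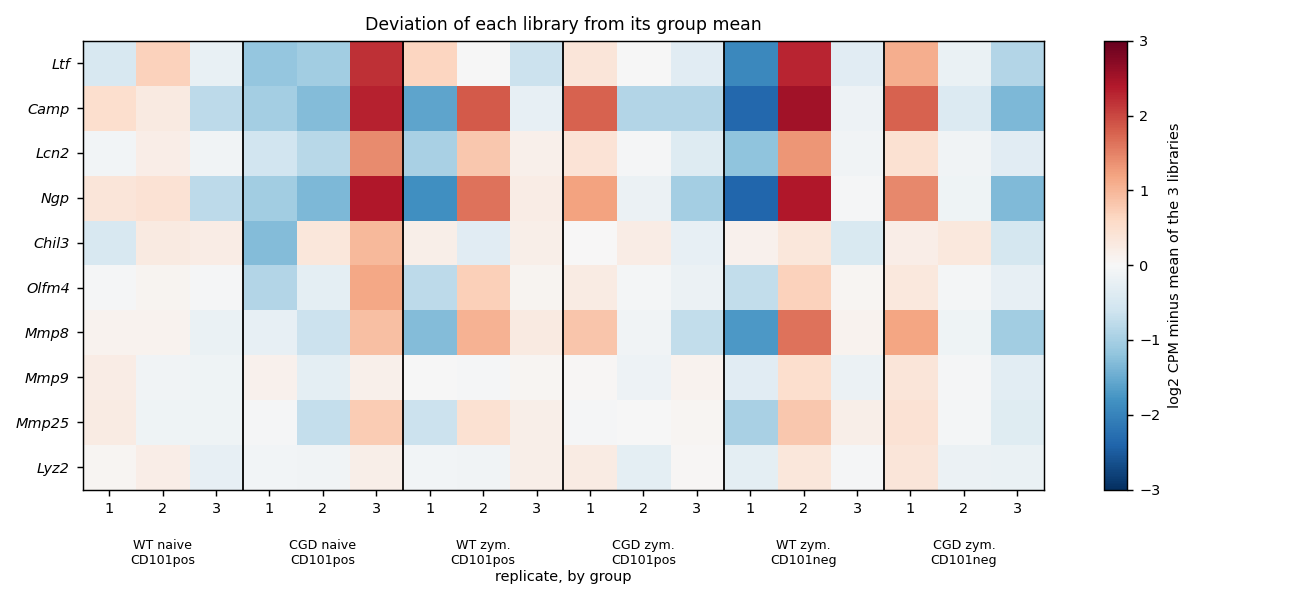
Deviation of each library from its group mean, in log2 CPM, for the 10 granule genes (rows) in 18 libraries (columns, replicates 1 to 3 of 6 groups). Red is above and blue below the group mean; CGD naive library 3 and WT CD101neg library 2 are red for all 10 genes, and Mmp9 and Lyz2 are pale throughout.

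Over all 18 libraries the genes nearest to each granule gene, by Pearson's r of log2 CPM among 5159 candidates, differed between them. Lcn2 was nearest to Fpr1 (r = 0.988), a formyl peptide receptor, and Mrgpra2b (0.976). Olfm4 was nearest to Lipg (0.973), Klf7 (0.968) and Cd177 (0.9645), Ngp to Ly6c2 and Stfa2 (0.943 each), Mmp8 to Becn1 (0.956), and Mmp25 to Snai1 (0.958). Chil3 was nearest to Cxcl3 and Casp8 (0.966 each), which correlated with it at only 0.418 and 0.511 once group means were subtracted. Ltf and Camp were both nearest to Timp2 (0.776 and 0.811), an inhibitor of metalloproteinases. These are descriptions of libraries that share groups, with no test.

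Other genes of the granule programme were read from lists. Of 23 tested other secondary and tertiary granule genes, 8 were higher and none lower in CGD than in WT CD101neg cells, where 6.67% of all tested genes were higher and 6.24% lower. They included the metal transporter Slc11a1, at 1583 to 1966 CPM against 710.4 to 842 CPM (log2 fold change 1.25 ± 0.165, edgeR, adjusted p = 0.000101), and the urokinase receptor Plaur, at 5950 to 7034 against 2622 to 3283 CPM (1.155 ± 0.19, adjusted p = 0.000638). Fpr2 and Crispld2 changed by 2.12 ± 0.36 and 2.01 ± 0.46. These were the 4 with the lowest p. In CD101pos cells 4 were higher (Slc11a1, Plaur, Ptx3 and Orm1, against 2.77% of all genes) and none lower, and 2 rose from CD101pos to CD101neg in CGD (Slc11a1 and Ceacam1, against 3.27%). After zymosan, against 7.13% of all genes higher and 5.71% lower, 8 rose and 2 fell in CGD CD101pos cells (Ceacam1 and Fcnb, the latter named after its values were seen), and 1 rose in WT (Itgam, against 2.92%). The median log2 fold change of the list was 0.64 in CD101neg and 0.04 in CD101pos cells for CGD over WT.

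Against the same 6.67% of all genes higher and 6.24% lower, 2 of 11 tested primary granule genes were higher in CGD than in WT CD101neg cells, Srgn (1.32 ± 0.22), the proteoglycan that packs granule proteases, and Ctsc (0.95 ± 0.19), the peptidase that activates them. Of 12 granule gene transcription factors, Cebpe was higher and Irf8 and Lef1 were lower in that comparison. Cebpe measured 5.57 to 6.97 CPM in WT and 7.67 to 18.9 CPM in CGD CD101neg cells (1.19 ± 0.29, edgeR, adjusted p = 0.0125), and 6.02 to 7.05 CPM in CGD CD101pos cells (CD101neg over CD101pos 1.12 ± 0.29, adjusted p = 0.029). Within the CGD CD101neg group it was lowest in library 1, in which Ltf, Camp, Ngp, Lcn2, Olfm4 and Mmp8 were highest. Of 15 genes of granule transport and release, 1 changed in any comparison, Unc13d, a priming factor of secretion. Unc13d was lower after zymosan in CGD (-1.125 ± 0.32, edgeR, adjusted p = 0.0259), where 5.71% of all tested genes were lower. Of 15 tested inhibitors and partners, Serpina3g and Stfa3 were higher in CGD than in WT CD101neg cells. Timp2 rose (0.87 ± 0.25) and Timp3 fell (-0.93 ± 0.26) from CD101pos to CD101neg in CGD, against 3.27% of all tested genes higher and 4.08% lower. Of 15 related family genes, 1 was higher in CGD in naive, 3 in CD101pos and 2 in CD101neg cells, and none lower. The shares of all tested genes higher were 0.121%, 2.77% and 6.67%. The macrophage elastase Mmp12 was higher in all 3 genotype comparisons, by 3.16 ± 0.55 in naive, 4.19 ± 0.55 in CD101pos and 1.76 ± 0.50 in CD101neg cells.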

How the data were processed

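RNA of sorted lung neutrophils was sequenced from SMARTer total RNA libraries of 18 samples in 6 groups of 3, per the labels' protocols. The authors deposited raw counts of reads per gene, and the submitters' processing notes name STAR (2.5.1a), featureCounts (1.4.6-p5) and the package Subread. Genome build, annotation and strand setting are not stated in labels or headers, so reads of antisense or overlapping genes cannot be told apart. The table had 40757 lines, of which 276 repeated an earlier line, and each of the 40481 gene IDs was used once.

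Counts were tested with edgeR 4.0.16 (R 4.3.3), using TMM scaling, the filterByExpr filter by group and a robust quasi-likelihood fit of all 18 libraries with 12 residual degrees of freedom. P-values were adjusted by Benjamini-Hochberg over the 16575 genes tested, the threshold was 0.05, and the common biological coefficient of variation was 33.0%. The SE is the log2 fold change divided by the square root of its F value. The filter kept at least 99.967% of each library's counts. Alternatives were RLE size factors, library size only, no filter, only the groups compared, a block for the replicate number, omission of every library in turn, and DESeq2 1.42.0. In the block fits of the sorts and of genotype by sort, only the zymosan libraries entered, with a term for each number within a genotype. Those fits had far fewer than 12 residual degrees of freedom, because the terms for number and for sort used up most of them. In the other comparisons the block was the number over all 18 libraries. Gene positions and promoter windows came from annotations of GRCm38 and from RefSeq. Ratios of counts were tested with exact permutation tests over libraries. The edgeR fit without a block was run beforehand on simulated counts with a single dispersion for all genes. It therefore does not cover genes with as wide a spread as Camp, Ngp, Ltf and Mmp8, and the block fits were not simulated.

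The titles of the CD101neg and CD101pos libraries of a genotype share a number. Across genes of at least 10 CPM, their deviations from group means correlated at 0.850, 0.844 and 0.695 in WT numbers 1, 2 and 3. The CGD values were 0.580, 0.2145 and 0.649, all over 0.1. Sorts of other numbers gave -0.771 to -0.0555 in WT and -0.596 to 0.0489 in CGD, though deviations from a mean of 3 push such values down. CGD CD101neg library 1 and WT CD101neg library 2, of different genotypes, reached 0.592. The numbers were taken to pair the sorts, but these values cannot establish that same-numbered sorts share an animal. Genes named in the text are the 10 genes in every comparison, per list and comparison up to 4 genes past the threshold with the lowest p, and per gene the 3 of highest correlation, with exceptions stated. The genes and lists were chosen with earlier results of these data known.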

Additional observations from a re-analysis of the deposited data

Results flagged for a closer look

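The change from CD101pos to CD101neg cells after zymosan differed between the genotypes for 4 of the 10 granule genes with the replicate block. The test was edgeR's quasi-likelihood test of that difference, CGD minus WT, with Benjamini-Hochberg adjustment over all tested genes. In that fit 2204 of all tested genes passed, against 141 without the block. Camp, the cathelicidin, rose less in CGD, with a log2 difference of -2.36 (adjusted p = 5.313e-05), and its 3 CGD ratios of 5.62 to 10.7 lay below the 3 WT ratios of 21.7 to 54.0. Lcn2, the siderophore binder, differed by 1.33 (adjusted p = 0.000461), with ratios of 1.93 to 2.11 in CGD and 0.671 to 1.14 in WT. The collagenase Mmp8 differed by 0.951 (adjusted p = 0.0108), with ratios of 1.38 to 2.17 in CGD and 0.653 to 1.31 in WT. The gelatinase Mmp9 differed by 0.833 (adjusted p = 0.0228), with ratios of 0.867 to 1.44 in CGD and 0.511 to 0.947 in WT, which overlap. None of the 4 passed without the block, where the adjusted p was 0.556, 0.556, 0.742 and 0.257. In groups of 3 no library was tested for standing apart.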

How the results depend on the processing

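Of 1200 values of the 10 genes under other settings, 1090 kept direction and side of the threshold, 7 lost the call, 41 gained one and 62 changed sign, 46 of them when a library was left out; the cause was not tested. Chil3 kept its calls in every alternative run for CGD over WT after zymosan and for zymosan over naive cells. With library size only, the median log2 fold change of all genes was -0.57 for CGD over WT in CD101neg cells (-0.08 with TMM), -0.34 between the CGD sorts (-0.015), -0.33 and -0.24 for zymosan in WT and CGD (-0.027 and 0.0027), 0.13 between the WT sorts (0.016) and -0.45 for genotype by sort (-0.0080).

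With library size only, 4 of the 10 genes passed for CGD over WT in CD101neg cells. There 3985 of all genes passed, 413 higher and 3572 lower, against 2139, 1105 and 1034 with TMM. With the same scaling 1 of the 10 passed between the WT sorts and 6 for zymosan in CGD (3 higher, 3 lower). Counts over all genes are not given for those comparisons, so these counts of the 10 have no background. Of all genes 9 passed for CGD over WT in naive cells (against 21) and 13 for genotype by zymosan (against 53). Library size only turned Mmp9 to -0.33 (CGD over WT, CD101neg), -0.059 (naive) and -0.10 (CGD sorts), Lyz2 to -0.059 (naive), Mmp25 to 0.015 (WT sorts), Mmp8 to -0.043 (zymosan, WT), Ngp to -0.14 (zymosan, CGD) and Olfm4 to -0.0046 (genotype by sort).

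RLE factors and no filter left 1 of the 10 past for CGD over WT in CD101pos cells. The counts over all genes with those settings are not given for that comparison. Without the filter 140 of all genes passed between the WT sorts (against 73), 327 for genotype by sort (141) and 119 for genotype by zymosan (53). In fits of only the groups compared, 2 of the 10 passed between the CGD sorts and 4 for zymosan in WT. Counts over all genes in those fits are not given for these comparisons. With only the groups compared, 1017 and 531 of all genes passed for CGD over WT in CD101neg and CD101pos cells (2139 and 878). The counts were 6 in naive cells, 0 between the WT sorts and 63 for genotype by sort. By DESeq2, 1 of the 10 passed for CGD over WT in naive cells, 2 between the WT sorts and 4 for zymosan in WT. DESeq2 called, of all genes, 1407 for CGD over WT in CD101pos cells, 110 in naive cells, 305 and 2066 between the WT and CGD sorts (73 and 1218), 1213 for zymosan in WT (629), 589 for genotype by sort and 261 for genotype by zymosan. Mmp25 for CGD over WT in CD101pos cells, near 0 in any fit, became -0.016 with RLE factors or DESeq2, -0.0029 without the filter and -0.0096 with only the groups compared, and Lyz2 between the CGD sorts became 0.0049 with RLE factors or DESeq2.

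With the replicate block 3, 5 and 4 of the 10 passed between the WT sorts, between the CGD sorts and for genotype by sort, with 1725, 3882 and 2204 of all genes. The block turned Mmp8 between the WT sorts to -0.20 and Ngp for zymosan in CGD to -0.18, and changed no call of the 10 in the other comparisons, where the groups share no more than a number.

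With each library left out in turn, the genes of the 10 past the threshold numbered 2 to 4 for CGD over WT in CD101neg, 1 to 2 in CD101pos and 0 to 1 in naive cells, 0 to 1 between the WT sorts, 0 to 0 between the CGD sorts, 1 to 2 and 2 to 3 for zymosan in WT and CGD, and 0 to 0 for both interactions. All genes past numbered 1177 to 1976, 324 to 1142, 2 to 65, 3 to 400, 328 to 1248, 268 to 562, 1194 to 1908, 43 to 519 and 5 to 54 in the same order. Changes of sign came with these ranges of the log2 fold change. For CGD over WT in CD101neg cells Ltf ran from -1.44 to 1.23, Camp from -2.30 to 1.15 and Mmp9 from -0.059 to 0.44, and in CD101pos cells Mmp25 from -0.25 to 0.25. In naive cells Lcn2 ran from -0.077 to 1.38, Olfm4 from -0.25 to 0.92, Mmp8 from -0.065 to 0.80, Mmp9 from -0.031 to 0.17 and Lyz2 from -0.066 to 0.15, the lowest of Lcn2, Olfm4 and Mmp8 without CGD naive library 3. Between the WT sorts Lcn2 ran from -1.05 to 0.35, Olfm4 from -0.094 to 0.74, Mmp8 from -1.02 to 0.69, Mmp25 from -0.55 to 0.26 and Lyz2 from -0.094 to 0.23. Between the CGD sorts Chil3 ran from -0.21 to 0.17 and Lyz2 from -0.23 to 0.11. For zymosan Mmp8 ran from -0.26 to 0.76 in WT and Ngp from -0.77 to 2.27 in CGD. For genotype by sort Ngp ran from -1.51 to 1.43 and Lyz2 from -0.32 to 0.074. For genotype by zymosan Ltf ran from -1.51 to 0.92, Camp from -3.125 to 0.43, Lcn2 from -0.72 to 0.71, Ngp from -2.34 to 0.69 and Mmp8 from -0.34 to 0.78. Of the log2 ratios, Camp to Ngp ran from -0.077 to 0.080 for CGD over WT in naive cells and from -2.71 to -2.40 in CD101neg cells. Ngp to Ltf ran from -0.78 to 1.29 for CGD over WT in CD101pos cells and from -0.61 to 0.16 between the CGD sorts. Camp to Ltf ran from -1.12 to 0.99 for CGD over WT in CD101pos cells, from -0.083 to 2.03 between the WT sorts and from -1.76 to 0.36 for zymosan in WT. The leave-one-out values of the ratios were added after the data were seen. Depth limits Camp in WT zymosan CD101pos cells, which rests on 20 to 176 counts.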
